A study of Mus musculus with 4 samples.

Results

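Open chromatin was examined at 10 mouse genes of glycolysis and nutrient uptake: the glucose transporter genes Slc2a1 and Slc2a3, the glycolytic enzyme genes Hk2, Eno1 and Ldha, the lactate carrier gene Slc16a1, the amino acid carrier genes Slc7a5 and Slc3a2, the transferrin receptor gene Tfrc and the oxygen-regulated transcription factor gene Hif1a. They are 10 of 21887 protein-coding genes and were listed by name. An accessible region belongs to a gene here when it overlaps the gene span (mm10) or the 20 kb on either side of it. Peaks of the 4 libraries overlapping by at least 1 bp were merged into regions, which gave 43 regions at the 10 genes out of 36224 in the genome.

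The libraries are ATAC-seq, which marks open DNA by the insertion of sequencing adapters with a transposase. The cells were DN3 thymocytes, precursors that carry neither CD4 nor CD8 and are rearranging the T cell receptor beta gene from the thymus of wild-type mice, and the labels name no age or treatment. Flow-sorted DN3 cells were parted on magnetic beads into EpCAM-positive cells, which bound an antibody against the adhesion molecule EpCAM, and EpCAM-negative cells, which passed through unbound. Each fraction has 2 libraries, and nothing in the labels says whether the replicates came from different animals, so the spread between them may be technical.

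Glucose enters cells through facilitative carriers of the SLC2 family and is trapped by hexokinase, and enolase and lactate dehydrogenase act near the end of the pathway to pyruvate and lactate. Thymocytes raise glucose, amino acid and iron uptake when they start to divide at beta-selection, the checkpoint that DN3 cells pass on their way to the DN4 stage. MYC and HIF-1 are known regulators of many of these genes and bind E-box and hypoxia response sequences.

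The lists held 26029 and 29030 peaks in the EpCAM-positive libraries (replicates 1 and 2) and 24598 and 25924 in the EpCAM-negative libraries. Sequencing depth as a read number is unknown here. The number of fragments piled up at each summit, called summit fragments, was solved from the deposited fold and p-value. Genome-wide background, in fragments at a base, came out at 0.388 and 0.383 for EpCAM-positive cells, against 0.290 and 0.286 for EpCAM-negative cells, a ratio of 1.34. The lowest −log10 q listed was 2.07 and 2.02 for EpCAM-positive cells, against 1.32 and 1.34 for EpCAM-negative cells. Of 12 DN3 marker genes, 7 had a peak at an annotated start in each EpCAM-positive library, and 9 and 7 had one in EpCAM-negative replicates 1 and 2. Il2ra, Notch1, Cd3e, Cd3g, Bcl11b and Lck had one in all 4, Rag1, Notch3 and Tcf7 in none, and Ptcra, Rag2 and Dtx1 in some. None of 6 myeloid and dendritic markers had one in any library. Of 7 thymic epithelial markers with an annotated start, 3 and 4 had one in EpCAM-positive cells, against 2 and 3 in EpCAM-negative cells. Aire and Ctsl had one in all 4, Krt5, Foxn1 and Psmb11 in none, and Epcam and Krt8 in some (Prss16 is in the list without an annotated start). Ebf1 of the B cell markers and Klf1 of the erythroid markers had one in all 4 libraries, while Cd79a, Pax5, Gata1 and Alas2 had one in none. The part of other cell types in the results below was not tested. An exact two-sided permutation test of 2 libraries against 2 cannot go below p = 0.33, so regions were counted and described and not tested.

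The promoter sequences of 4 genes are shown first. Of these, Slc16a1, Hif1a and Slc3a2 have the start regions that were higher in both EpCAM-positive libraries after scaling for depth, as described below. Letters recognised by MYC or HIF-1 are not particular to the 4, since Slc2a1, Hk2, Eno1 and Tfrc also hold a hypoxia response core. Slc3a2 holds no E-box. A link between these letters and the pileups was not tested. Each sequence is the 250 bases before the annotated start from RefSeq (GRCm38.p6), read 5′ to 3′ on the gene's strand. The E-box CACGTG and the hypoxia response cores ACGTG or GCGTG are in capitals on either strand. The windows are chr3:104638414-104638663 on the plus strand for Slc16a1, chr12:73907617-73907866 on the plus strand for Hif1a, chr7:46845554-46845803 on the plus strand for Ldha and chr19:8713898-8714147 on the minus strand for Slc3a2.
Slc16a1: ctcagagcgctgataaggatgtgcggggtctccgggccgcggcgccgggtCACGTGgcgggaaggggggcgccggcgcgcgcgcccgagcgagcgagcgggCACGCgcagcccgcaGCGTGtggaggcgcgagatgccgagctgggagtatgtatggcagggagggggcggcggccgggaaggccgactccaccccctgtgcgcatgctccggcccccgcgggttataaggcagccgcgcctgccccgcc
Hif1a: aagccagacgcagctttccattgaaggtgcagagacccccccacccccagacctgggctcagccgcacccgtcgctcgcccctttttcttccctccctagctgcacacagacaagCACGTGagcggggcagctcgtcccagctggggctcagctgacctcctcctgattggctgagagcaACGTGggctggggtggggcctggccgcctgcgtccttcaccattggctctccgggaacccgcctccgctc
Ldha: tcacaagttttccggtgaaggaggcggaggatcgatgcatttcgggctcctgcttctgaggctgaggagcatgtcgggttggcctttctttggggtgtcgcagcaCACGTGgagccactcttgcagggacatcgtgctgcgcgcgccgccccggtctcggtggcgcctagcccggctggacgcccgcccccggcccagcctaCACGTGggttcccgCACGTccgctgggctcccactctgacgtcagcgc
Slc3a2: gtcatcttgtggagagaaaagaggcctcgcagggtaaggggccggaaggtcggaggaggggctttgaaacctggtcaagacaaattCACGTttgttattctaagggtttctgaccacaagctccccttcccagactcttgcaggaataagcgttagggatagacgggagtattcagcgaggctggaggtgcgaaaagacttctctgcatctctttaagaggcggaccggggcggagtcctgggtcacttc

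Peaks covered all 250 of these bases at Slc16a1 and at Hif1a in each of the 4 libraries. At Ldha they covered 114 and 200 bases in EpCAM-positive cells, against 131 and 0 in EpCAM-negative cells. At Slc3a2 they covered none, since the peaks there began inside the transcribed side, 52 and 70 bp from the start in EpCAM-positive cells and 81 and 90 bp in the EpCAM-negative libraries. The E-box lay 200 to 195 bases before the start of Slc16a1 and 135 to 130 bases before that of Hif1a, and Ldha had E-boxes at 145 to 140 and at 48 to 43.

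Annotated starts were available in RefSeq for 8 of the 10 genes, and Slc2a3 and Slc7a5 are described by their gene ends. The E-box occurred before 3 of the 8 starts (1 start a gene), against 6.02% of the 32851 promoters in the table. The core ACGTG, which every E-box contains on both strands, occurred before 6 of 8, at Slc2a1, Slc16a1, Slc3a2, Hk2, Ldha and Hif1a, against 16.6% of all promoters. The core GCGTG occurred before 4 of 8 (28.2% of all). The GC box GGGCGG of SP factors occurred before 5 (32.7%), the box CCAAT of NF-Y before 3 (33.8%), the ETS core CCGGAA before 2 (12.0%) and the AP-1 letters TGACTCA before none (4.46%). The 8 windows had a GC content of 53.6 to 76.4%. The promoters of the whole table were not matched to them for GC content or for an accessible start. Some genes also have more than 1 start in the table. Whether the letters are more frequent at these genes than at similar promoters was not tested. A match is a stretch of letters and does not show that a factor bound there.

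All 10 genes had at least 1 region called in all 4 libraries, against 63% of the 21887 protein-coding genes, and fraction-only calls were few in both directions. The median window was 65.2 kb at the 10 genes and 57.2 kb over all genes, and at Slc2a3 such regions lay only outside the gene span. Of the 43 regions, 19 (44.2%) were called in all 4 libraries, against 48.9% of the 30552 regions in the window of any protein-coding gene. Another 2 (4.65%) were called in both EpCAM-positive libraries and neither EpCAM-negative one, against 4.47%, and 2 (4.65%) in both EpCAM-negative libraries and neither EpCAM-positive one, against 1.53%. The first of these shares lies near the background, and the other rests on 2 regions. Counted over the 3 libraries that remain, the EpCAM-positive-only regions numbered 9 once EpCAM-positive replicate 2 was left out and 7 once EpCAM-negative replicate 2 was. The EpCAM-negative-only regions numbered 5 without EpCAM-negative replicate 1 and 7 without EpCAM-negative replicate 2. A further 13 regions were called in 1 library and 7 in other combinations of both fractions. The windows held 37 and 30 peaks in EpCAM-positive cells, against 31 and 34 in EpCAM-negative cells. They covered 19.4 and 16.5 kb in EpCAM-positive cells, against 15.1 and 15.4 kb in EpCAM-negative cells. All 8 genes with an annotated start had a region called in all 4 libraries within 1000 bp of one, against 45.3% of 17492 protein-coding genes.

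**Figure D1:**
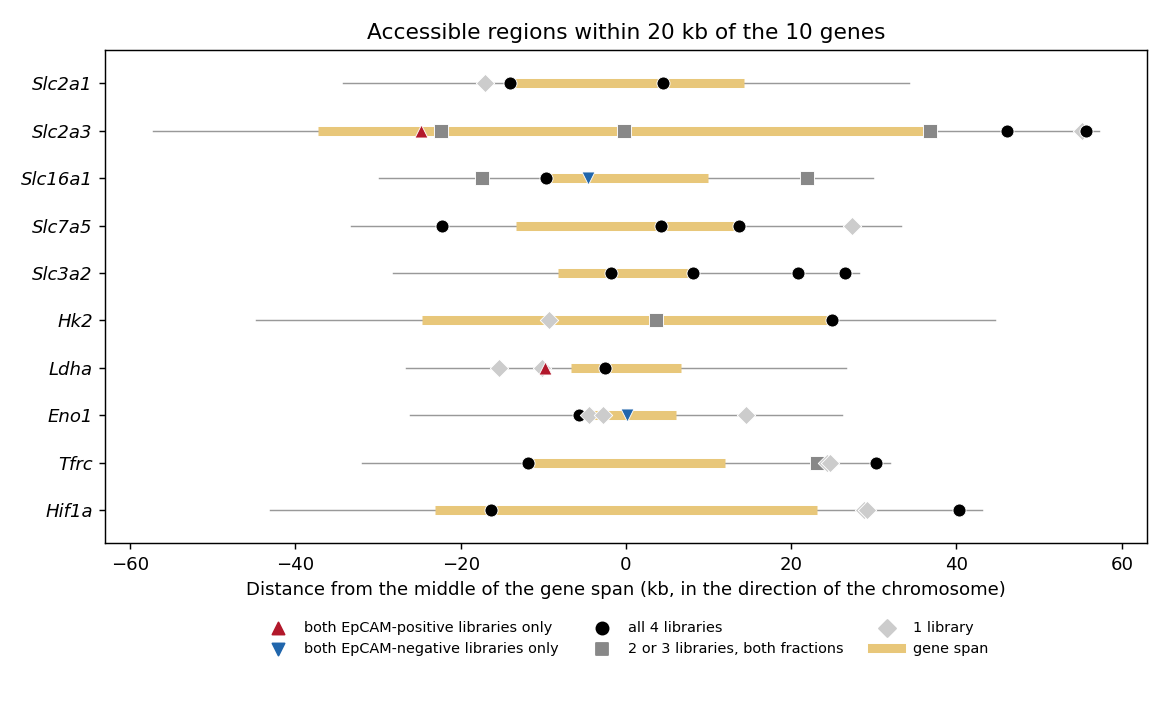
Regions at the 10 genes by distance from the middle of the gene span (kb, in the direction of the chromosome), with the gene span as a thick bar and the 20 kb on either side as a thin line; each marker is a region and its shape and colour give the libraries that called it. Regions called in all 4 libraries occur at every gene, and the 4 fraction-only regions lie at Slc2a3, Ldha, Slc16a1 and Eno1.

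Fraction-only regions occurred at 4 of the 10 genes, in both directions, and all were weak. EpCAM-positive-only regions lay at 2 genes (9.6% of all protein-coding genes have one in their window) and EpCAM-negative-only regions at 2 others (2.86% of all genes). They had 9 to 14 summit fragments, while the 5 regions called in all 4 libraries at the same 4 genes had 11 to 169. Over all 10 genes, regions called in all 4 libraries had 10 to 184 with a median of 45. Absence from a list is absence of a call and not of fragments, and the lists differ in depth and in their lowest −log10 q.

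Slc2a3, which encodes the high-affinity glucose transporter GLUT3, had an EpCAM-positive-only region inside the gene at chr6:122740141-122740391, 12332 bp from its nearer end. It had 13 summit fragments in each EpCAM-positive library, with a −log10 q of 5.68 and 7.20. The nearest EpCAM-negative peak lay 2150 bp away and had 10 summit fragments. Slc2a3 had 7 regions, 2 called in all 4 libraries and both of these outside the gene span (chr6:122727809-122802363).

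At Slc2a3, 3 more regions inside the gene were called in both fractions but not in EpCAM-negative replicate 1. The one at its upper end, chr6:122801453-122802332, 31 bp from that end, had 34 and 22 summit fragments in EpCAM-positive cells and 16 in EpCAM-negative replicate 2. The one at chr6:122764526-122765111 had 11 and 14 in EpCAM-positive cells, against 9 in EpCAM-negative replicate 2. The one at chr6:122742541-122742914 was called in replicate 2 of each fraction, with 17 summit fragments in the EpCAM-positive and 10 in the EpCAM-negative library. Thus none of the 4 regions inside the gene was called in EpCAM-negative replicate 1. The strongest region of the window lay outside the gene, 8086 bp beyond that upper end, at chr6:122810449-122811878. It had 166 and 147 summit fragments in EpCAM-positive cells, against 114 and 169 in EpCAM-negative cells, so the fractions overlapped. The other region called in all 4 libraries, 18084 bp outside, had 13 and 22 in EpCAM-positive cells, against 11 and 12 in EpCAM-negative cells, and beside it EpCAM-negative replicate 1 alone had a peak with 11.

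Slc2a1 encodes GLUT1, the transporter through which most dividing cells take up glucose, and its 2 regions called in all 4 libraries did not separate the fractions after scaling for depth. The region over its start, chr4:119108527-119109412, had 54 and 60 summit fragments in EpCAM-positive cells, against 47 and 40 in EpCAM-negative cells. Divided by each library's background, which gives the depth-scaled pileup, these were 139 and 157 times background in EpCAM-positive cells, against 162 and 140 in EpCAM-negative cells, and the fractions overlapped. The region inside the gene, chr4:119127148-119127827, had depth-scaled pileups of 43.8 and 52.2 in EpCAM-positive cells, against 34.5 and 59.4 in EpCAM-negative cells. A peak 2692 bp before the start was called only in EpCAM-negative replicate 2, with 14 summit fragments.

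Hk2, which encodes the inducible hexokinase that starts glycolysis, had the weakest start of the 8. Its start region, chr6:82774340-82774945, had 18 and 13 summit fragments in EpCAM-positive cells, against 13 and 15 in EpCAM-negative cells, with overlapping fractions. By −log10 q it stood in the top 55.9% and 87.5% of the EpCAM-positive lists and the top 74.7% and 62.8% of the EpCAM-negative lists. The strongest summits of the 4 libraries were up to 281 bp apart. Inside the gene a region with 7 and 7 summit fragments in EpCAM-positive cells and 6 in EpCAM-negative replicate 2 was not called in EpCAM-negative replicate 1, which alone had another peak with 7.

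Eno1, which encodes alpha-enolase, the enzyme that makes phosphoenolpyruvate, had an EpCAM-negative-only region inside the gene at chr4:150242720-150243045. It lay 5496 bp from the nearest annotated start and had 14 summit fragments in each EpCAM-negative library, with a −log10 q of 5.60 and 7.16. The nearest EpCAM-positive peak, called only in EpCAM-positive replicate 1 with 18 summit fragments, lay 2576 bp away. The start region of Eno1, chr4:150236852-150237433, had 51 and 49 summit fragments in EpCAM-positive cells, against 53 and 42 in EpCAM-negative cells. Its depth-scaled pileup was 131 and 128 in EpCAM-positive cells, against 183 and 147 in EpCAM-negative cells, lower in both EpCAM-positive libraries. The order at this start depends on the scaling, since the unscaled fragments of the fractions overlapped. Peaks in 1 library each lay 1039 bp (EpCAM-negative replicate 1, 22 summit fragments) and 19950 bp (EpCAM-positive replicate 1, 5) from the nearest start.

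Ldha, which encodes the lactate dehydrogenase subunit that favours lactate formation, had an EpCAM-positive-only region 2969 bp before the gene span, at chr7:46839001-46839305. It had 9 and 10 summit fragments in EpCAM-positive cells with a −log10 q of 3.65 and 5.51, which put it in the top 97.2% of the list of replicate 1 and the top 81.3% of that of replicate 2. A neighbouring peak at chr7:46838707-46838948 was called only in EpCAM-positive replicate 1, with 11 summit fragments, and the nearest EpCAM-negative peak lay 5367 bp away. Over an annotated start of Ldha, a broad region, chr7:46845604-46847224, held 3 and 2 peaks in EpCAM-positive cells, against 2 and 3 in EpCAM-negative cells. Its strongest summits had 25 and 26 fragments in EpCAM-positive cells, against 19 and 22 in EpCAM-negative cells. They lay up to 1152 bp apart between libraries, so these pileups are not of the same position.

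Slc16a1, which encodes the monocarboxylate transporter MCT1 that carries lactate and pyruvate across the cell membrane, had a stronger start region in EpCAM-positive cells and an EpCAM-negative-only region inside the gene. The region over its start, chr3:104638194-104639465, had 41 and 43 summit fragments in EpCAM-positive cells, against 24 and 22 in EpCAM-negative cells. Scaled for depth these were 106 and 112 times background in EpCAM-positive cells, against 82.8 and 76.9 in EpCAM-negative cells, higher in both EpCAM-positive libraries, with a log2 ratio of means of 0.45. This ratio stands at the 94.7th percentile of the 16758 regions that were called in all 4 libraries and had solved pileups. The strongest summits lay up to 177 bp apart, and the region held 1 peak in each EpCAM-positive library and 2 in each EpCAM-negative library. The authors' fold over local background was closer, at 7.82 and 9.44 in EpCAM-positive cells, against 7.46 and 6.99 in EpCAM-negative cells. The solved local background there was 4.37 and 3.66 fragments in EpCAM-positive cells, against 2.35 and 2.29 in EpCAM-negative cells. The EpCAM-negative-only region lay inside the gene, 5226 bp from the start, at chr3:104643890-104644169. It had 13 and 12 summit fragments in the EpCAM-negative libraries with a −log10 q of 6.71 and 5.94, and the nearest EpCAM-positive peak was the start peak 4672 bp away. Outside the gene, a region had 7 in EpCAM-positive replicate 1 and 8 in EpCAM-negative replicate 2, and another had 10 and 15 in EpCAM-positive cells and 11 in EpCAM-negative replicate 2.

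The amino acid carrier genes had all but 1 of their regions in all 4 libraries. Slc3a2 encodes the CD98 heavy chain, which brings light chains such as the product of Slc7a5 to the membrane, and all 4 of its regions were called in all 4 libraries. The region just inside its annotated start, chr19:8712786-8713845, had 160 and 139 summit fragments in EpCAM-positive cells, against 81 and 75 in EpCAM-negative cells. The depth-scaled pileups were 412 and 363 in EpCAM-positive cells, against 279 and 262 in EpCAM-negative cells, higher in both EpCAM-positive libraries, and the log2 ratio of 0.52 was at the 96.3rd percentile of regions called in all 4 libraries. The strongest summits of the 4 libraries lay up to 70 bp apart. The authors' fold over local background was 14.5 and 14.9 in EpCAM-positive cells, against 12.4 and 11.6 in EpCAM-negative cells.

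Another region of Slc3a2, chr19:8722865-8723733, lay over the upstream end of its gene span (minus strand), 8968 bp from the only annotated start. It had depth-scaled pileups of 196 and 159 in EpCAM-positive cells, against 203 and 206 in EpCAM-negative cells. It was lower in both EpCAM-positive libraries, by a log2 ratio of -0.21. Without scaling it was higher in both, by a log2 ratio of 0.22, and with pileups scaled to equal medians over all regions called in all 4 libraries the fractions overlapped. The region over the start of a neighbouring gene, Wdr74, 12138 bp outside Slc3a2, was likewise lower after depth scaling, with pileups of 101 and 107 in EpCAM-positive cells, against 124 and 133 in EpCAM-negative cells. Its log2 ratio was -0.31 with depth scaling and 0.11 without.

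Slc7a5 encodes LAT1, the carrier of large neutral amino acids such as leucine. A region inside the gene, chr8:121898293-121899008, 8678 bp from its nearer end, had 37 and 41 summit fragments in EpCAM-positive cells, against 54 and 45 in EpCAM-negative cells. It was lower in both EpCAM-positive libraries without any scaling, and with it the pileups were 95.4 and 107 times background in EpCAM-positive cells, against 186 and 157 in EpCAM-negative cells. The log2 ratio of -0.76 was at the 4.42nd percentile. The stronger region over the upper end of Slc7a5, chr8:121907481-121908693, had 98 and 102 summit fragments in EpCAM-positive cells, against 97 and 81 in EpCAM-negative cells. Its order was turned by the scaling, with a depth-scaled log2 ratio of -0.25 and an unscaled one of 0.17. A weaker region 8715 bp outside the gene had 17 and 19 in EpCAM-positive cells, against 14 and 12 in EpCAM-negative cells, and overlapped after scaling. A peak beyond the other end was called in EpCAM-negative replicate 1 alone, with 8.

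Tfrc encodes the receptor for transferrin, through which dividing cells import iron. Its start region, chr16:32608566-32609511, had depth-scaled pileups of 173 and 206 in EpCAM-positive cells, against 207 and 157 in EpCAM-negative cells, which overlapped. A region 18043 bp beyond the gene, chr16:32650837-32651465, had 16 and 10 summit fragments in EpCAM-positive cells, against 20 and 19 in EpCAM-negative cells. It was lower in both EpCAM-positive libraries without scaling, and with it had 41.2 and 26.1 times background in EpCAM-positive cells, against 69.0 and 66.4 in EpCAM-negative cells. The log2 ratio of -1.01 was at the 1.34th percentile, the lowest of the 19. Between this region and the gene, 1 region was called in 3 libraries and 2 in 1 library each, with 10 to 14 summit fragments.

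Hif1a encodes the oxygen-sensitive subunit of HIF-1, a transcription factor that raises glycolytic gene expression. Its start region, chr12:73907517-73908681, had 71 and 72 summit fragments in EpCAM-positive cells, against 49 and 45 in EpCAM-negative cells. The depth-scaled pileups were 183 and 188 in EpCAM-positive cells, against 169 and 157 in EpCAM-negative cells, higher in both EpCAM-positive libraries, with a log2 ratio of 0.19 at the 81.3rd percentile. The strongest summits lay up to 266 bp apart. The authors' fold over local background was 13.1 and 16.9 in EpCAM-positive cells, against 12.2 and 12.4 in EpCAM-negative cells. The log2 ratio was smaller here than at Slc3a2 and Slc16a1. Adjacent weak peaks 5608 and 5885 bp beyond the gene were called in EpCAM-positive replicate 2 (11 summit fragments) and EpCAM-positive replicate 1 (9) and did not overlap, so neither counted as an EpCAM-positive-only region.

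**Figure D2:**
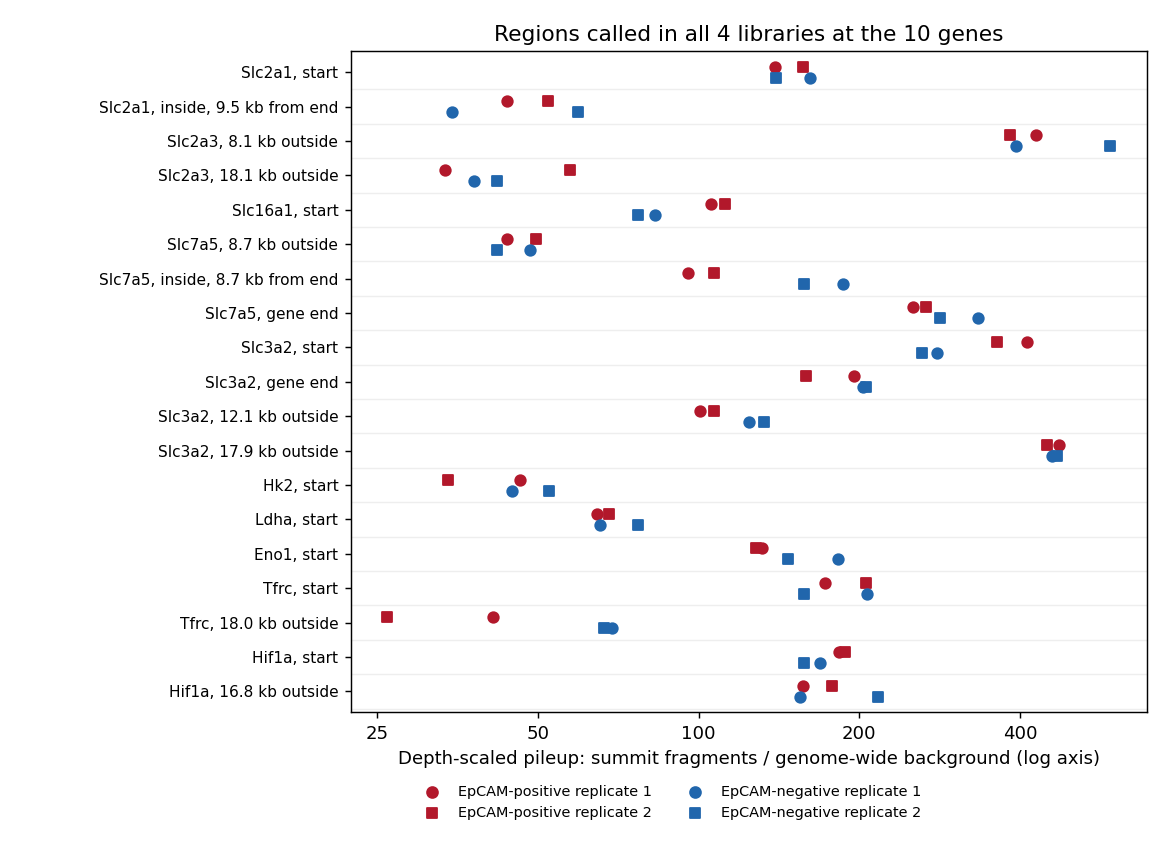
Depth-scaled pileup (summit fragments over the library's genome-wide background, log axis) in each library at the 19 regions called in all 4 libraries, with EpCAM-positive libraries in red above EpCAM-negative libraries in blue. The red points lie right of the blue ones at the starts of Slc16a1, Slc3a2 and Hif1a, and the fractions overlap at 10 regions. At 6 regions the red points lie left (inside and at the upper end of Slc7a5, at the upstream end of the Slc3a2 span and 12.1 kb outside it, at the start of Eno1 and beyond Tfrc).

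Over the 19 regions called in all 4 libraries, higher and lower regions after depth scaling came in shares near those of all such regions. After depth scaling, 3 of the 19 (15.8%), at the starts of Slc16a1, Slc3a2 and Hif1a, were higher in both EpCAM-positive libraries than in either EpCAM-negative one, against 13.3% of 16758 regions. Another 6 (31.6%) were lower in both EpCAM-positive libraries, against 32.1%: 2 at Slc7a5, 2 in the Slc3a2 window (the upstream end of its gene span and the start of Wdr74) and 1 each at Eno1 and Tfrc. The median log2 ratio was -0.11 at the 10 genes and -0.11 over all such regions, so the scaling leaves the whole distribution slightly below 0. Leaving out 1 library gave 5 higher regions without EpCAM-positive replicate 1 or either EpCAM-negative library, and 11 lower regions without EpCAM-negative replicate 1. Unscaled, 12 of the 19 (63.2%) were higher in both EpCAM-positive libraries, against 49.4% of all such regions, and 2 (10.5%) were lower, against 5.2%. Scaled to equal medians, 4 (21.1%) were higher, against 19.3%, and 5 (26.3%) lower, against 24.5%. The 3 regions that were higher and the regions inside Slc7a5 and beyond Tfrc that were lower had the same order under all 3 scalings. Both EpCAM-positive libraries had the higher background, so a region higher after depth scaling must be higher unscaled. Likewise, one lower unscaled must be lower after it, and the match of these orders adds no support. The 5 regions named here were singled out after their values had been seen. In pooled cells, a lower pileup through fewer cells with the site open and through less frequent opening in each cell cannot be told apart.

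**Figure D3:**
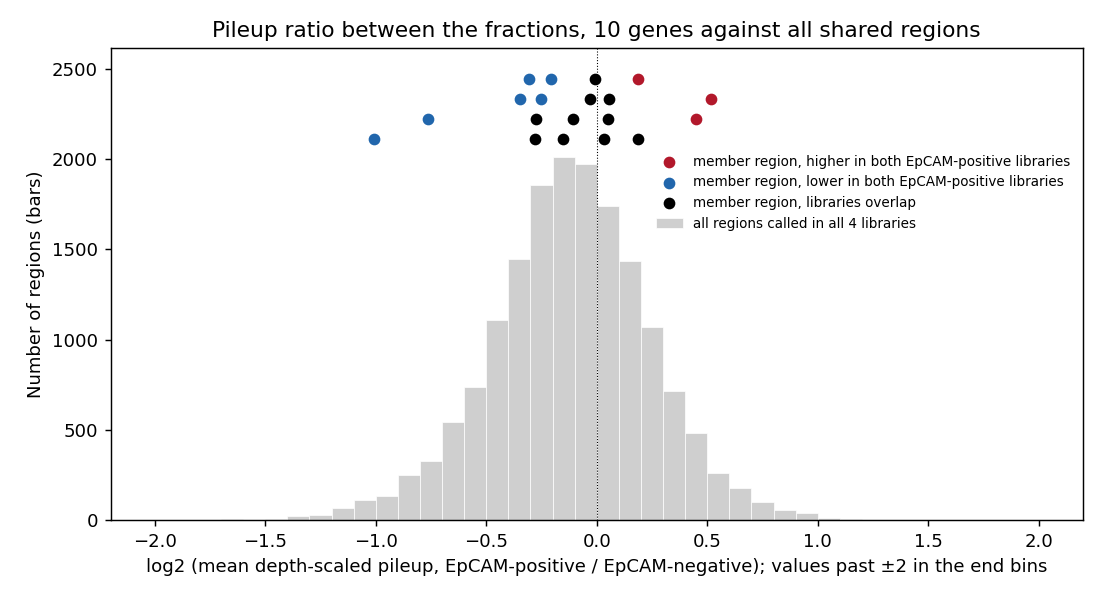
Distribution of the log2 ratio of mean depth-scaled pileup, EpCAM-positive over EpCAM-negative, for all 16758 regions called in all 4 libraries (bars), with the 19 regions at the 10 genes as points above it, whose height only separates them. The points lie within the range of the bars, from -1.01 at Tfrc to 0.52 at Slc3a2, and the fractions overlap at 10 of the 19 (black).

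Other genes of the same pathways, in 7 lists holding 88 genes, had fraction-only regions at shares near those of all genes. In their windows, 9 of the 88 genes (10.2%) had an EpCAM-positive-only region and 3 (3.41%) an EpCAM-negative-only region, against 9.6% and 2.86% of all genes, and no gene had both. Of the 74 with an annotated start, 57 (77%) had a region called in all 4 libraries there, against 45.3% of all genes with one. Among 20 further glycolytic enzyme genes, EpCAM-positive-only regions lay at Eno2, Pfkfb4 and Tigar, and an EpCAM-negative-only region lay 55 bp from the start of Aldoc, which encodes aldolase C (9 and 7 summit fragments in the EpCAM-negative libraries). The stronger EpCAM-positive-only region at Eno2, which encodes an enolase abundant in neurons, had 18 and 26 summit fragments in EpCAM-positive cells and covered the start of another gene, Lrrc23. Pfkfb4, which encodes an enzyme that sets the level of fructose 2,6-bisphosphate, had an EpCAM-positive-only region with 16 and 18 and a weaker one with 10 in each EpCAM-positive library over the start of Shisa5.

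Among the carriers, Slc16a6 and the glutamine transporter gene Slc38a1 had an EpCAM-positive-only region (14 and 13, and 8 and 7 summit fragments in EpCAM-positive cells), and Slc38a9, which encodes a lysosomal arginine sensor, had an EpCAM-negative-only region (6 and 6 in the EpCAM-negative libraries). Of 11 iron genes, 1, the iron carrier gene Slc11a2, had an EpCAM-negative-only region, 19385 bp outside the gene, with 7 and 12 summit fragments in the EpCAM-negative libraries. Of 13 hypoxia pathway genes, 1, Ddit4, an inhibitor of mTORC1, had an EpCAM-positive-only region, 6845 bp outside the gene, with 16 and 11 in the EpCAM-positive libraries. Of 8 genes of pyruvate entry into mitochondria, 1, Pdha1, had an EpCAM-positive-only region with 5 and 7. Of 15 growth signal genes, Mlxip and Mtor had an EpCAM-positive-only region, with 8 and 8 and with 7 and 8 summit fragments, and none had an EpCAM-negative-only region.

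**Figure D4:**
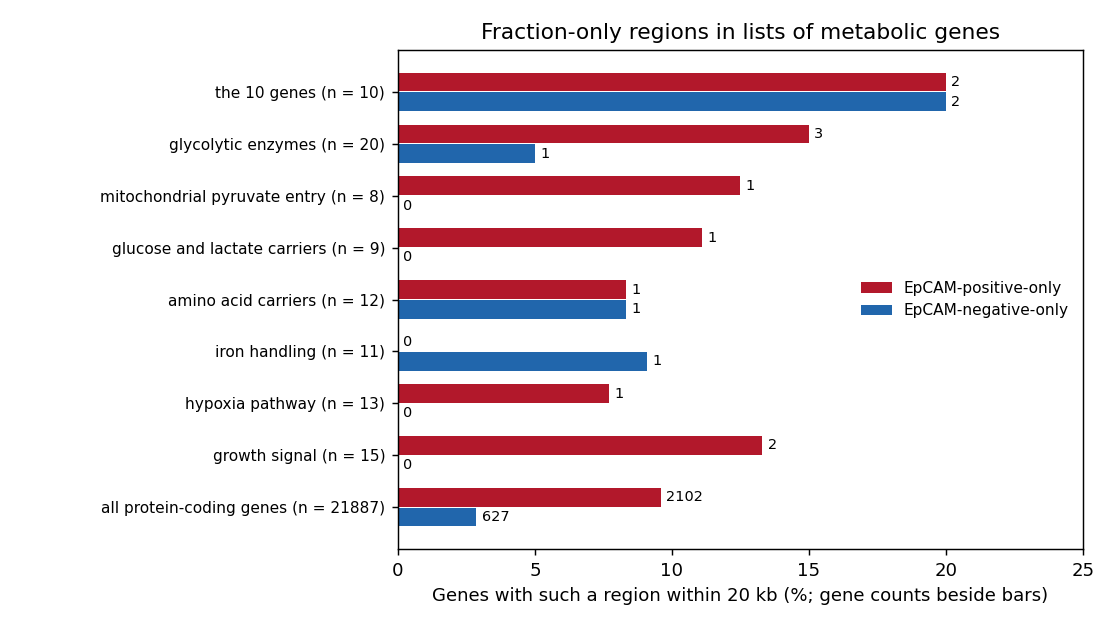
Share of genes (%) with an EpCAM-positive-only (red) or EpCAM-negative-only (blue) region within 20 kb, for the 10 genes, 7 lists of related genes and all 21887 protein-coding genes, with the number of genes beside each bar. The lists rest on 0 to 3 genes per bar, and the full set of genes stands at 9.6% and 2.86%.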

How the data were processed

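The deposited data were 1 narrow-peak list per library (4 libraries), so replicates were not pooled. Per the submitters' processing notes, Bowtie2, MACS3, SAMtools, Picard, deepTools, bedtools, Trimmomatic, Trim Galore and FastQC were used with build mm10 (GRCm38). For versions, settings, duplicate treatment and any transposase shift, the sources used here give nothing. The authors' lists give each peak a fold ratio over local background, a −log10 p and −log10 q, and a deposited display score of 10 times −log10 q (not used). A fold or −log10 value belongs to its peak; they were used to describe and rank peaks within a list.

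Summit pileup and local background were solved from fold and −log10 p under MACS's Poisson definitions (tolerance 0.01), for 99.9885 to 99.9959% of peaks; this step was tested on simulated data. The lowest solved background, a relative measure of depth, divided the pileups. Regions, windows and starts are defined in the report; genes and promoters came from RefSeq GRCm38.p6. Python 3.11.15, pandas 2.3.3 and scipy 1.17.1 were used. With 2 libraries per fraction nothing was tested. All regions of the 10 genes are given, and from the wider lists each gene with a fraction-only region is named, as are other genes at whose start a described region lies. The members and lists were chosen with earlier results of these data known. Alternatives covered joining of peaks, thresholds, list length, depth, window and libraries left out.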

Additional observations from a re-analysis of the deposited data

How the results depend on the processing

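No paired analysis was possible because the results, counts of calls and values per library, come from no test, and the labels do not tie libraries of the same number together. Of the 43 regions, 22 overlapped the gene spans and 25 the spans with 5 kb each side. Regions called in all 4 libraries numbered 19, and 12 with the gene span alone, 12 with 5 kb and 29 with 50 kb each side. The EpCAM-positive-only count of 2 became 1 with a −log10 q of at least 5, 1 with lists of equal length and 1 with the gene span alone, and the region lost was in each case that of Ldha. The regions at Slc2a3, Slc16a1 and Eno1 kept their pattern under all 10 alternatives other than leaving out a library. Some of these could not have changed it. A region inside its gene stays in every window, and thinning the EpCAM-positive lists cannot undo an EpCAM-negative-only call. Leaving out 1 library and counting over the other 3 gave 2 to 9 EpCAM-positive-only and 2 to 7 EpCAM-negative-only regions. When peaks were joined by summits within 150 bp, 5 of the 8 starts had a region called in all 4 libraries. The starts lost were those of Slc16a1, Hif1a and Hk2. At each of them the summit of 1 library lay more than 150 bp from the nearest summit of another. The pileups compared at these starts are thus not all of the same position.

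Alternatives for the pileups were chosen after seeing the data. Without scaling, the regions higher and lower in both EpCAM-positive libraries numbered 12 and 2 (63.2% and 10.5%, against 49.4% and 5.2% of all regions called in all 4 libraries). The log2 ratio changed sign at 10 of the 19 regions. At 6 of these the fractions overlapped after depth scaling. The other 4, lower after it, were at Eno1 (0.074), at the upper end of Slc7a5 (0.17), and at Slc3a2 at the upstream end of the gene span (0.22) and 12138 bp outside (0.11). Scaled to equal medians, the sign changed at 2 regions, both overlapping. Leaving out 1 library gave 4 to 5 regions higher and 8 to 11 lower, since fewer values then have to be apart. Read depth is unknown, and regions near the lists' lowest values can be missed in the shallower libraries.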

Other observations

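Several regions in the windows of the 10 genes, strong and weak, lay at the starts of other genes. The strongest by −log10 q in the Slc3a2 window covered the start of Stx5a, which encodes a syntaxin of Golgi transport, with 184 and 172 summit fragments in EpCAM-positive cells, against 133 and 134 in EpCAM-negative cells. Its depth-scaled pileups of 474 and 449 in EpCAM-positive cells, against 459 and 469 in EpCAM-negative cells, overlapped. In the Hif1a window, a region over the start of Snapc1, a subunit of the complex that transcribes small nuclear RNA genes, had 61 and 68 summit fragments in EpCAM-positive cells, against 45 and 62 in EpCAM-negative cells. In the Slc2a3 window, a region 263 bp from the start of Foxj2 had 13 and 22 in EpCAM-positive cells, against 11 and 12 in EpCAM-negative cells.

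Of the 13 regions called in 1 library, 5 came from EpCAM-positive replicate 1, 1 from EpCAM-positive replicate 2, 5 from EpCAM-negative replicate 1 and 2 from EpCAM-negative replicate 2. They had 5 to 22 summit fragments, and 3 of them lay within a gene span.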
